A study of Homo sapiens with 6 samples.

Results

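Expression of 10 genes that execute inflammatory and lytic cell death was followed in U-2 OS cells, a human osteosarcoma line, after SFPQ knock-down. The 10 genes are NLRP1, CARD8, PYCARD, CASP1, CASP4, GSDMD, GSDME, RIPK1, RIPK3 and MLKL, selected by gene symbol from the 60664 genes of the deposited count table and each matched to 1 Ensembl gene. U-2 OS cells received control siRNA (siControl) or siRNA against the RNA-binding protein SFPQ (siSFPQ) at 30 nM by lipofection, with 3 biological replicates each, and polyadenylated RNA was sequenced as paired-end reads. All libraries came from this polyploid line, and the interval between transfection and harvest for sequencing is not given in the sources used here.

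Inflammasomes are assemblies in which a sensor protein, such as NLRP1 or CARD8, recruits and activates caspase-1, often through the adaptor ASC, the product of PYCARD. Caspase-1, and caspase-4 when it meets cytosolic bacterial lipopolysaccharide, cleave gasdermin D, whose released fragment forms pores in the plasma membrane and causes pyroptosis. Necroptosis is a separate lytic death in which RIPK1 or ZBP1 engages RIPK3, which phosphorylates the membrane-permeabilizing pseudokinase MLKL.

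Counts of SFPQ were 22338, 23139 and 21753 with control siRNA and 3140, 3863 and 3151 after SFPQ knock-down. All siSFPQ libraries were far below all siControl libraries, and SFPQ was downregulated with a log2 fold change of -2.73 ± 0.05 (SE, n = 3 per group, edgeR quasi-likelihood test, adjusted p = 6.34e-30). Libraries held 43469321 to 47119203 counts. Of 7 mesenchymal and osteoblastic markers, 6 had a mean over 1 CPM (counts scaled to library size), and COL1A2 had 31 to 55 counts. The summed level of the 7 was 7746 to 8232 CPM in siControl and 6947 to 7111 CPM in siSFPQ, where FN1, COL1A1, THY1 and SPARC fell and VIM rose. The summed level of 9 myeloid markers was 1.37 to 1.75 CPM in siControl and 1.91 to 2.42 CPM in siSFPQ, with 4 of the 9 at 3 counts or fewer in every library and FCGR3A at 0 throughout, while ITGAM (log2 fold change 2.21) and CSF1R (0.75) rose and PTPRC (-1.61) fell, none of these above 48 counts. The summed level of 6 lymphoid markers was 1.32 to 2.21 CPM in siControl and 1.85 to 2.22 CPM in siSFPQ, with CD3E at 0 or 1 count, CD8A at 36 to 62 counts and not called, and CD3D higher in siSFPQ (22, 5 and 3 against 41, 19 and 43 counts, log2 fold change 1.77, adjusted p = 0.00269). The summed level of 6 epithelial markers was 335 to 350 CPM in siControl and 753 to 817 CPM in siSFPQ, where 4 markers rose and 1 fell. The part of all these marker changes in the results that follow was not tested.

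Of the 10 genes, 9 had at least 10 counts in total and were tested, and RIPK3 was not. At an adjusted p under 0.05, 6 of the 9 were higher after SFPQ knock-down (NLRP1, CASP1, GSDMD, GSDME, RIPK1 and MLKL), against a background of 22.4% of all 29022 tested genes. CARD8 alone was lower, against a background of 22.1%, and PYCARD and CASP4 were not called. In a fit of protein-coding genes only, the class of all 10 genes, 4967 of 16477 genes were higher and 5121 lower. Both are larger shares than among all tested genes. The same 6 and 1 of the studied genes were called there. A log2 fold change over 1.5, the limit used in the study, was passed by NLRP1 and MLKL, against a background of 5.54% of tested genes higher and 4.77% lower beyond that limit. The normalized counts of the groups did not overlap for 7 of the 9 genes, against 52.3% of all tested genes. The median log2 fold change of the 9 genes was 0.46, and that of all tested genes was 0.02. NLRP1 and MLKL belong to an innate immunity gene set that the study chose from these same libraries, so their direction is not independent evidence. In bulk RNA, a change in the number of cells that express a gene and a change in the RNA per cell cannot be told apart.

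**Figure D1:**
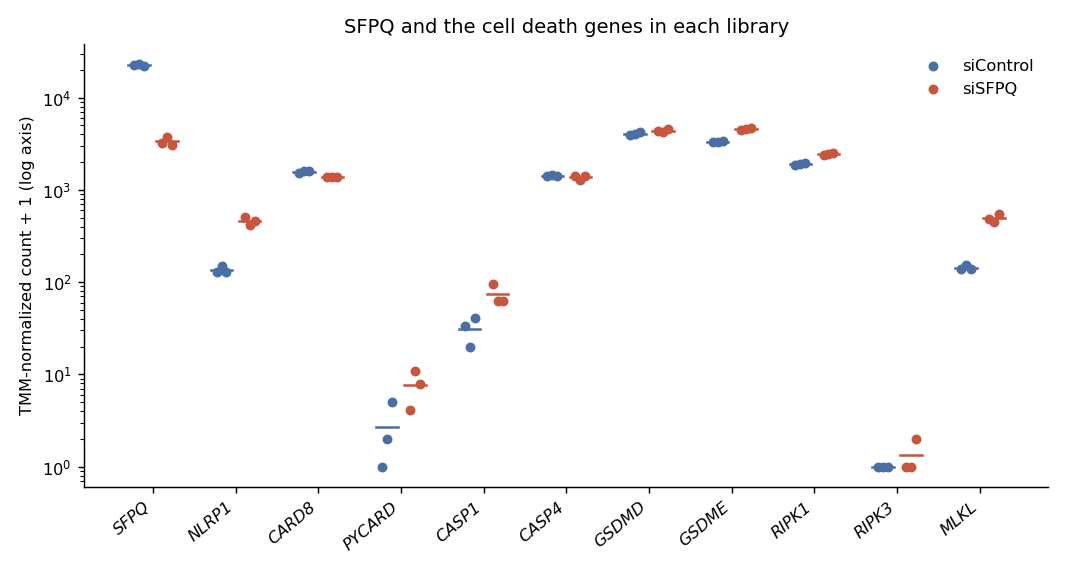
TMM-normalized counts plus 1 on a log axis for SFPQ and the 10 cell death genes, with 1 point per library and a bar at the mean of each group of 3. NLRP1, MLKL and CASP1 separated widely between siControl and siSFPQ, CARD8, GSDMD, GSDME and RIPK1 separated by small steps, and RIPK3 lay at or next to 0.

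The RefSeq table of promoter sequences (GRCh38.p14) held 12 windows for 6 of the 10 genes (CARD8, PYCARD, CASP4, GSDME, RIPK1 and MLKL), each covering 250 bases before and 50 bases after a transcription start. These windows were searched on both strands for the core of the interferon-stimulated response element, GAAANNGAAA, because the study concerns interferon signalling and because some of these genes moved together. The core was found in 4 windows, which are 2 overlapping windows at alternative starts of each of RIPK1 and CARD8 that share the same match. These are 2 of the 6 genes, and the other windows of RIPK1 and CARD8 held no match. Over the whole set, 3.57% of 35116 promoter windows and 4.38% of 27305 genes held the core. RIPK1 rose and CARD8 fell, whereas the MLKL window held no match. The 150 bases upstream of 4 starts are shown to set the windows that hold the core beside those of MLKL and CASP4, which do not, with any match in capitals. The RIPK1 stretch lies at chr6:3068228-3068377 on the plus strand, with its match beginning 67 bases upstream of an alternative start. The CARD8 stretch lies at chr19:48249829-48249978 on the minus strand, with its match beginning 66 bases upstream of an alternative start. The MLKL stretch lies at chr16:74700863-74701012 and the CASP4 stretch at chr11:104968575-104968724, both on the minus strand. A match is a description of letters and not of a bound site.
RIPK1: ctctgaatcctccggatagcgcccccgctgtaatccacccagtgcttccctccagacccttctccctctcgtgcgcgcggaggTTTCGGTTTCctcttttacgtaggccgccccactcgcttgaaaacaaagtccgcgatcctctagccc
CARD8: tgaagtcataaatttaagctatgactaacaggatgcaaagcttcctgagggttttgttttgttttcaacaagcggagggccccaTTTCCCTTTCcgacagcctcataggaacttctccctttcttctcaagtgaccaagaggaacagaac
MLKL: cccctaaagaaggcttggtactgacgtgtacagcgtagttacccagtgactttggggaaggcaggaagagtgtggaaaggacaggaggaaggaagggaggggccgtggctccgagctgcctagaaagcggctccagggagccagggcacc
CASP4: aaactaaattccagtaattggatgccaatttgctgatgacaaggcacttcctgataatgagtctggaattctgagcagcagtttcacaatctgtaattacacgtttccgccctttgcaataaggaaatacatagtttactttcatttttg

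Among the sensors, NLRP1 rose and CARD8 fell slightly. NLRP1, a sensor of viral proteases and ribosome stalling that is best known from keratinocytes, spans chr17:5499415-5619424 on the minus strand. Counts of NLRP1 were 127, 147 and 127 with control siRNA and 493, 428 and 464 after SFPQ knock-down. The lowest siSFPQ library held far more NLRP1 counts than the highest siControl library. NLRP1 was upregulated 3.44-fold, with a log2 fold change of 1.78 ± 0.11 (SE, adjusted p = 3.47e-15, edgeR). A protein-coding gene without a symbol, ENSG00000286190, shares 1500 exonic bases with NLRP1 on the same strand, and it had 128 to 158 counts in siControl and 176 to 208 counts in siSFPQ (log2 fold change 0.42, adjusted p = 0.00909, edgeR).

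CARD8, a sensor related to NLRP1 that is also held in check by the dipeptidyl peptidases DPP8 and DPP9, spans chr19:48180770-48255946 on the minus strand. Counts of CARD8 were 1511, 1616 and 1605 with control siRNA and 1344, 1424 and 1383 after SFPQ knock-down. The groups did not overlap, but the step between them was small. The CARD8 level decreased by 12.6%, with a log2 fold change of -0.19 ± 0.05 (SE, adjusted p = 0.00294, edgeR). Of the antisense neighbours, ENSG00000268583, with 389 exonic bases shared, was not called (log2 fold change -0.34, adjusted p = 0.478, edgeR), ZSWIM9, with 313 bases shared, fell (-0.40, adjusted p = 7.98e-05), and CARD8-AS1, with 3 bases shared, rose (0.64, adjusted p = 0.00021), and the strand setting of the counting is not given in the sources used here.

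PYCARD, the gene of the adaptor ASC that links many sensors to caspase-1, spans chr16:31201486-31203450 on the minus strand. Counts of PYCARD were 0, 1 and 4 with control siRNA and 3, 10 and 7 after SFPQ knock-down, so the groups overlapped and every value was close to the detection floor. The log2 fold change was 1.91 with a 95% confidence interval from -0.11 to 3.93 (adjusted p = 0.123, edgeR), and at this depth a difference was not detectable. Without the third siControl library it was 3.43 (adjusted p = 0.0375, edgeR). The siControl counts left, 0 and 1, were then under the floor of 3 counts, so this call carries no support. The antisense gene PYCARD-AS1 overlaps 991 of the 1660 exonic bases of PYCARD and had 0 to 2 counts, and whether reads were lost to the overlap was not tested.

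Of the inflammatory caspases, CASP1 rose and CASP4 was not called. CASP1 encodes caspase-1, which processes the precursors of interleukin-1β and interleukin-18 as well as gasdermin D, and spans chr11:105025397-105035250 on the minus strand. Counts of CASP1 were 32, 19 and 40 with control siRNA and 91, 63 and 63 after SFPQ knock-down. All siSFPQ libraries exceeded all siControl libraries, although both groups were low. CASP1 was upregulated 2.38-fold (log2 fold change 1.25 ± 0.26, SE, adjusted p = 0.000186, edgeR).

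CASP4, which encodes the lipopolysaccharide-sensing caspase-4, lies in the same gene cluster at chr11:104942866-104969366 on the minus strand. Counts of CASP4 were 1397, 1461 and 1409 with control siRNA and 1370, 1324 and 1440 after SFPQ knock-down. The groups overlapped. The log2 fold change of -0.05 had a 95% confidence interval from -0.16 to 0.06 (adjusted p = 0.51, edgeR), and its sign turned to 0.01 when libraries were scaled by their totals alone. CASP1, CASP4 and the CARD-only genes beside them are related in sequence, and how reads shared between them were counted is not given in the sources used here.

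The gasdermins are the pore-forming proteins of pyroptosis, and both studied here were abundant. GSDMD, the substrate of caspase-1 and caspase-4, spans chr8:143553207-143563062 on the plus strand. Counts of GSDMD were 3919, 4042 and 4213 with control siRNA and 4250, 4338 and 4652 after SFPQ knock-down. After normalization the highest siControl library had 4224 counts and the lowest siSFPQ library 4245 counts, so the groups barely separated. The difference was 8.40% (log2 fold change 0.12 ± 0.04, SE, adjusted p = 0.0235, edgeR). The call was lost without siControl replicate 1 (adjusted p = 0.099), without siControl replicate 2 (adjusted p = 0.0547) and without siSFPQ replicate 3 (adjusted p = 0.0932).

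GSDME, a gasdermin that can turn apoptosis into lytic death, spans chr7:24698355-24757940 on the minus strand. Counts of GSDME were 3312, 3311 and 3389 with control siRNA and 4357, 4662 and 4780 after SFPQ knock-down. The siControl libraries lay close together and all siSFPQ libraries were above them. GSDME was upregulated by 37.3% (log2 fold change 0.46 ± 0.04, SE, adjusted p = 1.52e-11, edgeR).

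The necroptosis genes split into a moderate rise of RIPK1, near absence of RIPK3 and a marked rise of MLKL. RIPK1, a kinase that also serves as a scaffold for survival signalling below the tumour necrosis factor receptor, spans chr6:3063824-3115187 on the plus strand. Counts of RIPK1 were 1856, 1904 and 1932 with control siRNA and 2315, 2504 and 2520 after SFPQ knock-down. The groups did not overlap. RIPK1 was upregulated by 28.5% (log2 fold change 0.36 ± 0.05, SE, adjusted p = 5.75e-08, edgeR). The antisense gene ENSG00000272277, which shares 330 exonic bases with RIPK1, had 19 to 53 counts and was not called.

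RIPK3, the kinase that phosphorylates MLKL, spans chr14:24336025-24340022 on the minus strand. RIPK3 was at 0 counts in all libraries except the third siSFPQ library, which held 1 count. A count of 0 in the siControl libraries allows a level of up to 0.065 CPM, and the limit covers counting error only. Both groups were under the floor of 3 counts, and no fold change is given. ENSG00000258973, which shares 358 exonic bases with RIPK3 on the same strand, was also at 0 in every library.

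MLKL, the executioner of necroptosis, spans chr16:74671855-74700960 on the minus strand and overlaps no other annotated gene. Counts of MLKL were 139, 151 and 138 with control siRNA and 470, 454 and 561 after SFPQ knock-down. The siControl libraries were nearly level, and each siSFPQ library stood well above them. MLKL was upregulated 3.46-fold (log2 fold change 1.79 ± 0.11, SE, adjusted p = 1.91e-15, edgeR).

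**Figure D2:**
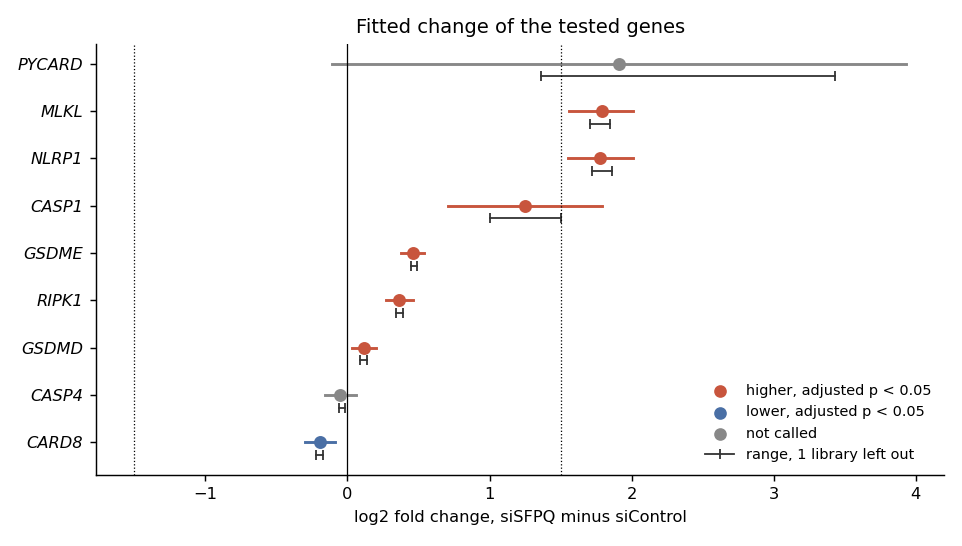
Fitted log2 fold change of the 9 tested genes (siSFPQ minus siControl), with the 95% confidence interval as a coloured line, the range over the fits that each left out 1 library as a thin black line, and dotted lines at -1.5 and 1.5. MLKL and NLRP1 lay at 1.79 and 1.78 with intervals above 1.5, CASP1 at 1.25, and the interval of PYCARD crossed 0.

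Levels of different genes were compared as TPM, that is, counts divided by the summed exon length of each gene and scaled to the library. In siControl libraries GSDMD was highest at 68.8 ± 1.95 TPM (SD, n = 3), followed by GSDME at 33.5 ± 0.131 TPM. CASP4 at 18.4 ± 0.535 TPM, RIPK1 at 13.4 ± 0.197 TPM and CARD8 at 10.3 ± 0.355 TPM formed a middle group, all with separate ranges. MLKL stood at 2.16 ± 0.123 TPM, CASP1 at 0.659 ± 0.225 TPM and NLRP1 at 0.572 ± 0.0527 TPM, where the ranges of CASP1 and NLRP1 overlapped. PYCARD was at 0.086 ± 0.107 TPM, which became 0.0261 TPM without siControl replicate 3 and 0.129 TPM without siControl replicate 1, and RIPK3 was at 0. The gasdermins were thus the most abundant transcripts of the set, and the adaptor and the necroptosis kinase the least.

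In siSFPQ libraries the same genes held the first 6 places, GSDMD at 73.4 ± 2.73 TPM (SD, n = 3) and GSDME at 45.2 ± 1.59 TPM leading. MLKL reached 7.35 ± 0.795 TPM, next below CARD8 at 8.85 ± 0.202 TPM, and these ranges did not overlap. NLRP1 at 1.94 ± 0.154 TPM now stood above CASP1 at 1.55 ± 0.366 TPM, with overlapping ranges. The ranges of CASP4 at 17.5 ± 0.672 TPM and RIPK1 at 17.0 ± 0.592 TPM also overlapped. When the length of the longest transcript was used, RIPK1 at 19.6 TPM stood above CASP4 at 19.1 TPM in siControl, and NLRP1 at 1.10 TPM above CASP1 at 0.772 TPM, so these orders depend on the transcript model. The same length raised GSDME to 51.0 TPM and CARD8 to 18.0 TPM in siControl, and in siSFPQ it put CARD8 at 15.7 TPM, well above MLKL at 8.09 TPM.

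**Figure D3:**
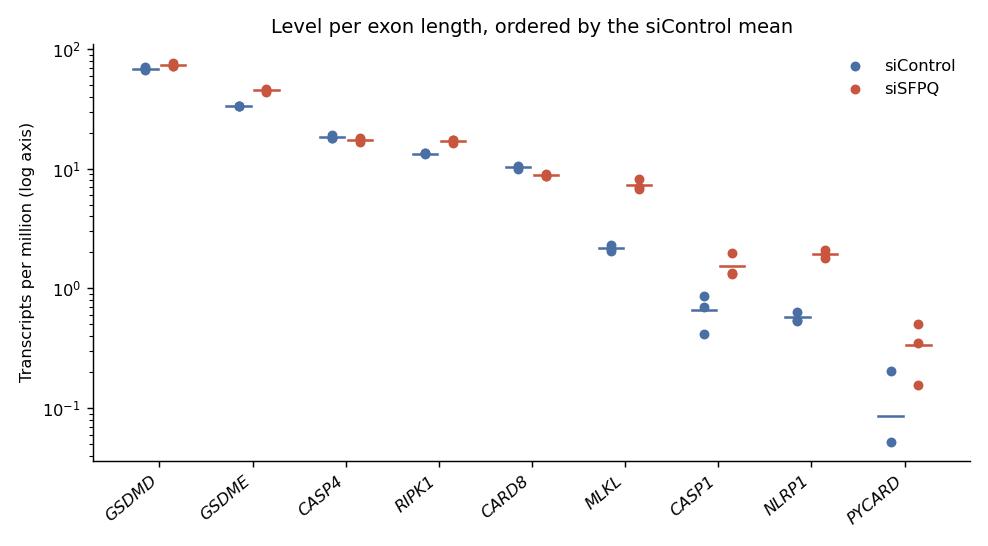
TPM of each gene on a log axis, ordered by the siControl mean, with 1 point per library and a bar at the mean of 3. RIPK3 and the siControl library in which PYCARD was at 0 are not drawn, and the genes span from 68.8 TPM for GSDMD to 0.086 TPM for PYCARD in siControl.

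Log2 ratios of counts within each library, which do not depend on library scaling, were computed for 4 pairs, with 0.5 added to each count. The MLKL to RIPK1 ratio was -3.73, -3.65 and -3.80 with control siRNA and -2.30, -2.46 and -2.17 after SFPQ knock-down. The CARD8 to NLRP1 ratio was 3.57, 3.45 and 3.65 with control siRNA and 1.45, 1.73 and 1.57 after SFPQ knock-down. Within each library MLKL thus gained on RIPK1, by 1.42, and NLRP1 gained on CARD8, whose ratio fell by 1.97. The CASP4 to CASP1 ratio fell by 1.33, from a mean of 5.59 ± 0.572 to 4.26 ± 0.317 (SD, n = 3). The GSDME to GSDMD ratio rose by 0.34, from a mean of -0.28 ± 0.036 to 0.06 ± 0.0384. The groups did not overlap in any of the 4 ratios, and each two-sided exact permutation test gave p = 0.1 (adjusted p = 0.1 over 4 tests), which is the lowest value this design can reach. The RIPK3 to RIPK1 ratio was not computed because RIPK3 lacked counts.

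**Figure D4:**
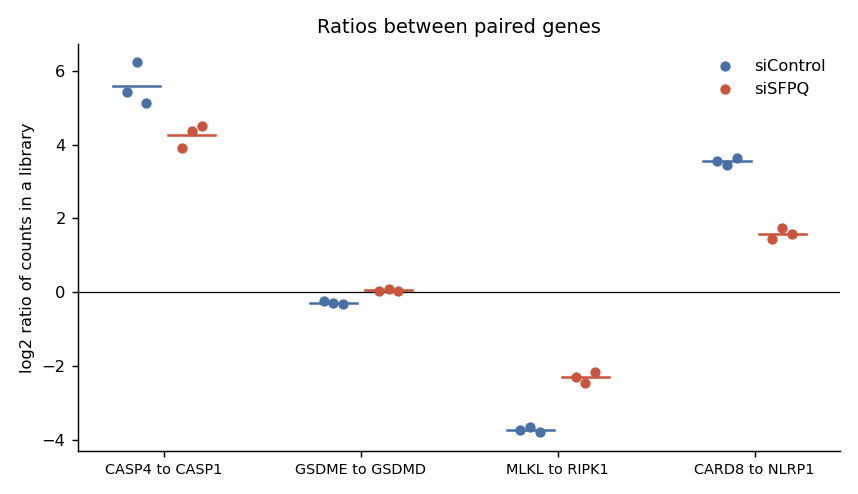
Log2 ratio of raw counts, with 0.5 added, between paired genes in each library, with 1 point per library and a bar at the mean of 3. CASP4 to CASP1 and CARD8 to NLRP1 were lower in siSFPQ, and GSDME to GSDMD and MLKL to RIPK1 were higher.

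Of 84 further genes of these pathways, 74 were tested, of which 28 (37.8%) rose and 19 (25.7%) fell, and their median log2 fold change was 0.07. These shares, and the counts of each list below, stand beside 22.4% and 22.1% of all tested genes. No test of the lists was made. In the fit of protein-coding genes only, 4967 of all 16477 genes rose and 5121 fell, both larger shares than among all tested genes. In that fit 30 of the further genes rose and 18 fell. With libraries scaled by their totals alone, 35 rose and 13 fell. Genes at 3 counts or fewer in every library of a group could enter the test only through the other group, so their calls carry no support, and without them 23 of 67 rose and 18 fell. AIM2, NLRP6, NLRP12, IL1B, ZBP1, CARD17P and CASP5 are such genes, and they are given by their counts and bounds. Each bound sets the mean of the other group against the floor and leaves out counting error, so single libraries can lie below it. Among 11 tested sensors beside NLRP1 and CARD8, 5 rose, 2 fell and 4 were not called. Without AIM2, NLRP6 and NLRP12, which were at the floor in siControl, 2 of 8 rose and 2 fell. AIM2, the cytosolic DNA sensor, had 0, 2 and 3 counts in siControl and 26, 18 and 21 counts in siSFPQ, at least 7.23-fold higher against a floor of 3 counts per library. NLRP3, the most studied inflammasome sensor, rose by 0.76 on the log2 scale (adjusted p = 5.62e-06, edgeR), and IFI16, a nuclear DNA sensor, by 0.34 (adjusted p = 1.91e-08). NLRP6 and NLRP12 stayed at or below 12 counts and were at least 3.22-fold and 2.43-fold higher. NLRP10 fell with a log2 fold change of -1.19 (adjusted p = 0.00738, edgeR). Its counts were 24, 50 and 38 in siControl and 17, 10 and 22 in siSFPQ. NAIP, which detects bacterial flagellin and needle proteins, fell with a log2 fold change of -0.74 (adjusted p = 0.0273, edgeR). NAIP had 37, 71 and 62 counts in siControl and 34, 25 and 43 in siSFPQ, and the groups overlapped. NLRP2, NLRC4, PYHIN1 and MEFV were not called, and NLRP7 was too low to test.

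Of 9 tested regulators beside PYCARD, 5 fell and 4 were not called, with CARD17P among the 5. Without CARD17P, which was at the floor in siSFPQ, 4 of 8 fell. CARD17P, a pseudogene related to the CARD-only inhibitors of caspase-1, had 6, 8 and 13 counts in siControl and 0 in every siSFPQ library, at least 3.01-fold lower against the floor. DPP8, which restrains NLRP1 and CARD8, fell with a log2 fold change of -0.12 (adjusted p = 0.0177, edgeR), whereas DPP9, which does the same, was at 0.05 with an interval from -0.05 to 0.14. NEK7, a partner of NLRP3, fell with a log2 fold change of -0.24, as did MAP3K20, the ribosome stress kinase upstream of NLRP1, also with -0.24. BRCC3, a deubiquitinase of NLRP3, fell with -0.12 (adjusted p = 0.0448, edgeR), although its normalized counts overlapped between the groups. CARD16, a CARD-only gene, had 30, 27 and 39 counts in siControl and 51, 45 and 51 counts in siSFPQ. Its log2 fold change of 0.61 was not called (adjusted p = 0.0608, edgeR). CARD18 (-0.03) and TXNIP (0.29) were not called either. CARD16, CARD18, TXNIP, DPP8, DPP9, NEK7, MAP3K20 and BRCC3 were named after their values were seen.

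Among the other caspase genes, CASP8, the apoptotic initiator that cleaves RIPK1, rose with a log2 fold change of 0.25 (adjusted p = 3.01e-05, edgeR), and CASP12 was at 0 in every library. CASP5 had 0, 7 and 3 counts in siControl and 0, 3 and 1 counts in siSFPQ. Its bound against the floor, 1.11-fold lower, rests on the siControl library with 7 counts and carries no support. CASP5 was not called (adjusted p = 0.447, edgeR). Of the other gasdermin genes, GSDMA had 12, 21 and 9 counts in siControl and 61, 49 and 31 counts in siSFPQ, a log2 fold change of 1.74 (adjusted p = 0.000125, edgeR). GSDMB, which granzyme A cleaves, had 527, 544 and 576 counts in siControl and 229, 297 and 273 counts in siSFPQ, a log2 fold change of -1.05 (adjusted p = 2.67e-11). NINJ1, which ruptures the membrane after pores have formed, rose by 0.14, and GSDMC and PJVK were not called. Of 6 genes of ESCRT-III membrane repair, CHMP4C rose by 0.78 and CHMP4B fell with a log2 fold change of -0.28, both named after their values were seen, and 4 were not called.

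Of 9 tested cytokine and receptor genes, 4 rose, 3 fell and 2 were not called, with a median log2 fold change of -0.03. Without IL1B, which was at the floor in siControl, 3 of 8 rose and 3 fell. IL18, whose precursor caspase-1 cleaves, had 10829, 10867 and 11709 counts in siControl and 16161, 17124 and 16986 counts in siSFPQ, a log2 fold change of 0.58 (adjusted p = 4.83e-15, edgeR). IL1B, another such substrate, had 0, 0 and 1 counts in siControl and 7, 9 and 8 counts in siSFPQ, at least 2.65-fold higher against the floor. IL1A, an alarmin of the same family that does not need caspase-1, had 17, 20 and 23 counts in siControl and 67, 65 and 85 counts in siSFPQ, a log2 fold change of 1.84 (adjusted p = 4.11e-07). The receptor subunit IL18R1 rose by 1.21, whereas IL18BP, the secreted inhibitor of interleukin-18, fell with a log2 fold change of -0.42, IL1R1 with -0.20 and HMGB1 with -0.13. IL1RAP and IL18RAP were not called, and IL33, IL36G and IL1RN were too low to test.

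Of the remaining necrosome genes, ZBP1, the sensor of Z-form nucleic acid that can engage RIPK3, had 0 counts in every siControl library and 7, 12 and 14 counts in siSFPQ, at least 3.64-fold higher against the floor. TICAM1, the adaptor of Toll-like receptor 3 that binds RIPK1, rose by 0.48 (adjusted p = 7.09e-06, edgeR). AIM2, ZBP1, IL1A and BIRC3 belong to the same gene set that the study chose from these libraries. Of 6 tested genes of death and Toll-like receptors and their ligands, 5 rose, all receptors. These were FAS (log2 fold change 0.83), TLR4 (0.68), TLR3 (0.36), TNFRSF10B (0.20) and TNFRSF1A (0.11). The ligand TNFSF10 was not called, and TNF, FASLG and the receptor gene TNFRSF10A were too low to test. The genes of this list were named after their values were seen. Of 22 genes that hold RIPK1 in check or assemble its complex, 7 rose, 7 fell and 8 were not called. BIRC3, a ubiquitin ligase of RIPK1, had the highest log2 fold change of these, 2.08 ± 0.14 (SE, adjusted p = 7.59e-15, edgeR).

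**Figure D5:**
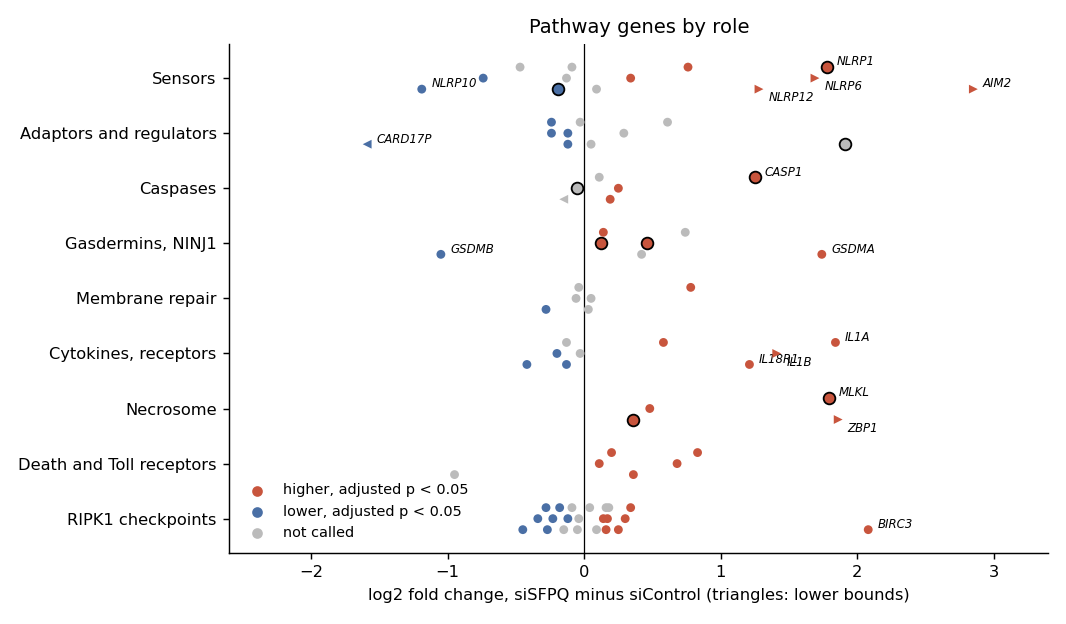
Log2 fold change (siSFPQ minus siControl) of the tested pathway genes by role, red where higher and blue where lower at an adjusted p under 0.05, with the studied genes outlined in black and triangles for lower bounds against 3 counts per library. Necrosome and receptor genes lay mostly to the right of 0, and the 22 checkpoint genes on both sides with BIRC3 at 2.08. The triangle of CASP5 rests on the siControl library with 7 counts.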

How the data were processed

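Polyadenylated RNA of U-2 OS cells transfected with control or SFPQ siRNA was sequenced in 6 libraries. The authors checked reads with FastQC, aligned them with STAR 2.7.9a to GRCh38 and deposited raw counts per Ensembl gene, and 0 columns were left unused. The strand setting of the counting is not given in the sources used here. Gene names and exon lengths came from GENCODE release 44, which matched 99.67% of the gene identifiers. Genes with at least 10 counts in total entered the quasi-likelihood test of edgeR 4.0.16 (R 4.3.3), which used TMM factors, no covariates and Benjamini-Hochberg adjustment over 29022 genes. Normalized counts are counts divided by the effective library size and multiplied by the geometric mean of those sizes. A floor of 3 counts equalled 0.0637 to 0.069 CPM. Libraries of the same group differed by 3.77 to 5.49 times Poisson sampling noise (as chi-square over its degrees of freedom), and none was counted as a duplicate.

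The genes and lists were chosen with earlier results of these data known. Named genes were all 10 genes, SFPQ, list genes with an adjusted p under 0.05 and an absolute log2 fold change over 1, and any gene of the sensor, caspase, gasdermin, necrosome and cytokine lists. Some genes of the caspase list are not reported here. Alternatives were other filters, scalings, DESeq2 1.42.0, protein-coding genes only, a replicate block and leaving out each library. The procedure was checked on simulated counts with large known changes in expressed genes. That check does not cover small changes, genes near the floor or data in which a large share of all genes changes, as here.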

Additional observations from a re-analysis of the deposited data

How the results depend on the processing

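The number of the 10 genes called higher (6) and lower (1) kept within 1.5 times its value under all 13 other fits, and NLRP1, CARD8, CASP1, GSDME, RIPK1, MLKL and SFPQ kept their direction and call in each of them. Leaving out 1 library at a time gave 5 to 7 genes higher and 2 to 3 past a log2 fold change of 1.5. The 7 and the 3 counted PYCARD with siControl at the floor, a call without support. The same fits gave 25 to 28 higher and 14 to 19 lower among the further pathway genes. Scaling by library totals alone gave 35 higher and 13 lower of these, against 28 and 19. The fold change of CASP4 took the opposite sign, 0.01, when libraries were scaled by their totals alone (not called in either case), and the cause was not tested. In the same fit the median log2 fold change of all tested genes was 0.08, against 0.02. GSDMD lost its call, and PYCARD gained one that carries no support, without single libraries as given above. Setting genes at the floor to their bound moved the median log2 fold change of the 2 further necrosome genes from 3.47 to 1.17, an alternative chosen after seeing the data. Libraries with the same replicate number barely deviated together (correlations of 0.0019, 0.0121 and 0.0153), so the numbers were not taken as pairs, although each library correlated best with its own number. A replicate block gave 6 genes higher and 1 lower, with log2 fold changes of 1.78 for NLRP1 and 1.79 for MLKL. PYCARD and RIPK3 were near the detection floor and overlap other annotated genes, as given above, and no protein was measured.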
